A study of Rattus norvegicus with 4 samples.

Results

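The 9 genes Mdm2, Cdkn1a, Ccng1, Bax, Bbc3, Gadd45a, Sesn1, Sesn2 and Tp53inp1 are established targets of the transcription factor p53. They were chosen by gene symbol and known role, with no threshold on a measured value, from 17327 symbols in the count tables, where all 9 are listed. The choice was made with earlier results of these libraries known, so that the values below describe the genes and are no independent support for a p53 response. OLN93 cells are rat oligodendroglial cells that immortalized on their own and were grown in medium with fetal calf serum. RNA was sequenced from 2 control libraries of Sox10-positive OLN93 cells and from the Sox10-deficient clones A and B, in which Sox10 had been inactivated by CRISPR/Cas9 with a different guide RNA each. Each Sox10-deficient library is a single clone. The controls are clones according to the paper and biological replicates according to their labels. The editing protocol stands in the labels of all 4 libraries alike, and whether the controls had met Cas9 is not given in the sources used here. Effects of Sox10 loss, of editing and of growing up from a single cell therefore cannot be told apart.

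The transcription factor p53 is kept low by Mdm2, a ubiquitin ligase that is itself a p53 target and so closes a negative feedback loop. DNA breaks, including those made by Cas9, stabilize p53. It then raises genes for cell cycle arrest such as Cdkn1a, for apoptosis such as Bax and Bbc3, and for repair and stress defence such as Gadd45a and the sestrins. In oligodendrocyte precursors, the Cdkn1a product p21 has also been linked to differentiation.

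Library totals ran from 60951 to 104017 deposited counts. Values are given as counts and as CPM, the count scaled to a common normalized library total. Fewer cells that express a gene and less RNA of it per cell cannot be told apart in such bulk libraries. A count of 3 was the floor up to which no expression was read, and it corresponded to between 29.1 and 48.0 CPM and covers counting error only. A gene was said to have passed when edgeR's quasi-likelihood test gave a Benjamini-Hochberg adjusted p of 0.05 or less, over all 2438 tested genes, and a change of at least 2-fold. As a check of the labels, Sox10 was counted 28 times in control 1, 64 times in control 2 and 14 times in clone B, and had no count in clone A. Its fitted log2 difference, clones minus controls, was -2.74 (SE 0.62, edgeR's quasi-likelihood adjusted p = 0.0172). Sox10 did not pass with DESeq2 (adjusted p = 0.99978), and in edgeR it did not pass without control 2 (adjusted p = 0.546), without clone A (0.0689) or with the replicate number as a block (0.125).

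Because p53 acts by binding DNA, the promoters of the genes were searched for its motif. The motif searched is the p53 half-site of 10 letters, which reads the same on both strands, and a match was a pair of half-sites at most 13 bases apart with at most 2 mismatches in all and none in the C and G of each core. RefSeq promoter windows on GRCr8, a later rat assembly than the rn5 build behind the counts, were found for 6 of the 9 genes, and each ran from 250 bases before to 50 bases after the start used there. Of these 6 windows, 4 held a match, against 3.53% of all 33469 promoters and 5.56% of the 72 promoters of other p53 targets. For each gene the match with the fewest mismatches, and of these the shortest spacer, is shown, because these genes include the 3 with the clearest differences below. Half-sites are in capitals, and the flanks and any spacer are in lower case, read 5′ to 3′ along the gene.

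Cdkn1a: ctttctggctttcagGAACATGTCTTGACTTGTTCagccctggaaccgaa
Ccng1: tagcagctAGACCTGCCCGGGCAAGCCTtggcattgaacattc
Gadd45a: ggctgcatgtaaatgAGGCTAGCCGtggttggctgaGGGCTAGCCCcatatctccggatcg
Sesn1: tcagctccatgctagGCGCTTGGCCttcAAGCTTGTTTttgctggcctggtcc

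The Cdkn1a sequence lies at chr20:7150716-7150765 on the plus strand, and its match begins 201 bases before the start, has 1 mismatch and no spacer. The Ccng1 sequence lies at chr10:25685084-25685126 on the minus strand, and its match begins 242 bases before the start, with 1 mismatch and again no spacer. The Gadd45a sequence lies at chr4:97486823-97486883 on the minus strand, where the match begins 69 bases before the start, with 1 mismatch and a spacer of 11 bases. The Sesn1 sequence lies at chr20:46948519-46948571 on the plus strand, inside the annotated span of Sesn1 itself, and its match begins 185 bases before the start used, with 2 mismatches and a spacer of 3 bases. The window of Gadd45a also overlaps an annotated locus of a long non-coding RNA, and that of Cdkn1a overlaps another annotated locus. That of Ccng1 falls in no annotated gene. A match with at most 1 mismatch was found in 0.565% of all promoters. No match was found in the windows of Mdm2 and Sesn2, which says only that these letters are not in these 300 bases. Matches are a description of sequence, and binding of p53 was not measured.

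**Figure D1:**
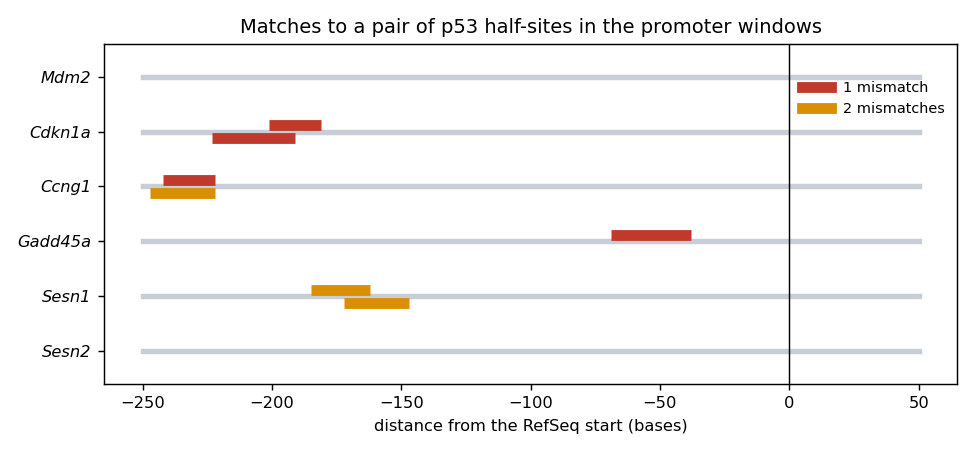
Positions of p53 half-site pairs in the RefSeq promoter windows of 6 p53 target genes, as distance in bases from the start (0). Grey lines are the windows, and bars are matches with 1 mismatch (red) or 2 mismatches (orange). Cdkn1a, Ccng1, Gadd45a and Sesn1 have matches, and Mdm2 and Sesn2 have none.

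Of the 9 genes, 6 had at least 20 counts in the 4 libraries together. In 5 of these 6, Cdkn1a, Ccng1, Gadd45a, Bax and Sesn2, both clones lay above both controls, which was so for 20.9% of all 3923 genes with that many counts. Mdm2 was the exception. Only 4 of the 9 genes had enough counts to be tested, and 1 of them, Ccng1, passed as higher in the clones, where 1.11% of all tested genes did. None passed as lower, where 2.50% of all tested genes did. Cdkn1a, Ccng1 and Gadd45a reached 0.05 or less and 2-fold when p was left unadjusted, as did 4.63% of all tested genes on the higher side. Cdkn1a and Gadd45a passed the filter on low counts through the clones alone and so had to differ, which makes these counts over the tested genes no measure of the 9 genes as a set.

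**Figure D2:**
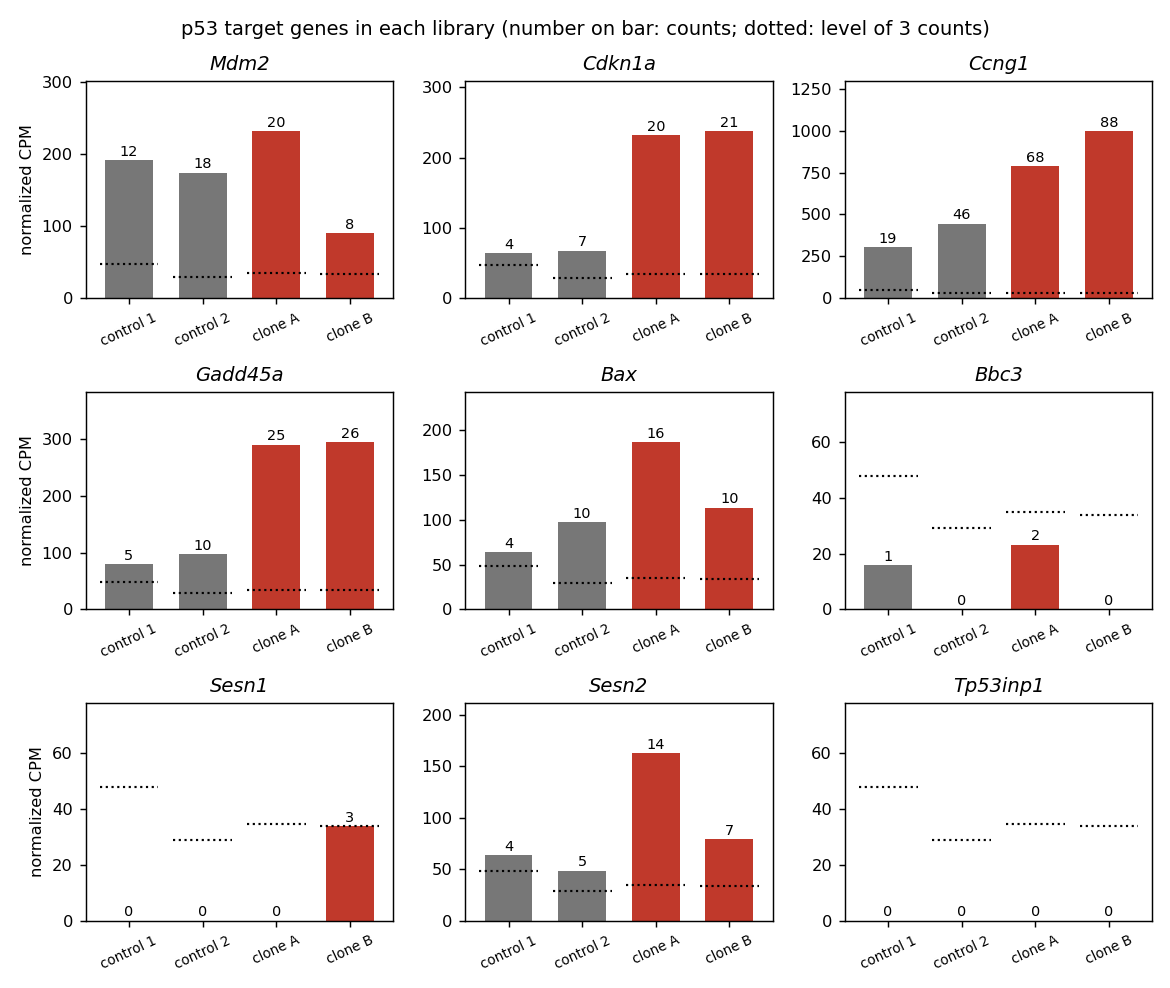
Level of each of the 9 p53 target genes in each library, in normalized CPM (bars from 0, controls grey, Sox10-deficient clones red), with the count above each bar and the level of 3 counts as a dotted line. Clones A and B stand above both controls for Cdkn1a, Ccng1, Gadd45a, Bax and Sesn2, clones and controls overlap for Mdm2, and Bbc3, Sesn1 and Tp53inp1 lie at or under 3 counts.

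Mdm2, the ligase that degrades p53 and reports on its activity, was counted 12 times in control 1, 18 times in control 2, 20 times in clone A and 8 times in clone B. These counts correspond to 192, 174, 232 and 90.6 CPM. Clone A was thus the highest and clone B the lowest of the libraries, and the groups overlapped. The log2 fold change was -0.18 with a standard error of 0.52 (edgeR's quasi-likelihood adjusted p = 0.947). Its 95% interval ran from -1.29 to 0.92, so that a 2-fold decrease lay inside it and a 2-fold increase just outside. Clone A stood at 2.56 times clone B, with an exact 95% counting interval of 1.08 to 6.73, unadjusted for the number of genes. Control 2 stood at 0.910 times control 1 (0.415 to 2.07). Without clone B the log2 fold change was 0.35, and without clone A it was -0.99, neither with an adjusted p under 0.05 from edgeR.

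Cdkn1a, whose product p21 inhibits cyclin-dependent kinases and holds the cell cycle, was counted 4 and 7 times in controls 1 and 2, and 20 and 21 times in clones A and B. The levels were 63.9 and 67.9 CPM for the controls and 232 and 238 CPM for the clones. Both clones lay far above both controls, and the libraries within each group were close together. The group means were 65.9 ± 2.77 and 235 ± 3.89 CPM (SD, n = 2 per group), at a log2 fold change of 1.80 and a 95% interval of 0.62 to 2.98. In edgeR's quasi-likelihood test the adjusted p was 0.0922, so that the 3.48-fold higher level did not pass over all genes. Over the other fits of all 4 libraries the adjusted p ranged from 0.0779 to 0.523, and Cdkn1a passed in none of them. Counting noise alone would spread such small counts more widely than the SDs show, so that these SDs understate the error.

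Ccng1, which encodes cyclin G1 and acts in the feedback between p53 and Mdm2, was the gene with the most counts. It was counted 19 and 46 times in controls 1 and 2, and 68 and 88 times in the clones, or 304, 446, 790 and 997 CPM. The lower clone stood well above the higher control. Ccng1 rose from 375 ± 101 to 893 ± 146 CPM (mean ± SD, n = 2), a log2 fold change of 1.21 (SE 0.30, edgeR's quasi-likelihood adjusted p = 0.0327) with a 95% interval of 0.57 to 1.86. DESeq2 gave an adjusted p of 0.233. Leaving out any one library gave log2 fold changes between 0.98 and 1.52, and Ccng1 did not pass in edgeR (adjusted p between 0.0579 and 0.497). Such a fit leaves 1 library in a group, which is assumed to vary like the other group. The lost call remains a limit of the result for Ccng1. How far it came from the smaller number of libraries was not tested.

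Gadd45a, a small stress protein that acts in growth arrest and DNA repair, was counted 5 and 10 times in controls 1 and 2, and 25 and 26 times in the clones. Levels of 79.9 and 96.9 CPM for the controls stood against 290.4 and 294 CPM for the clones, again with no overlap. The log2 fold change was 1.68 with a 95% interval of 0.69 to 2.67. In edgeR's quasi-likelihood test its adjusted p of 0.0554 missed the threshold. From the same test, the adjusted p fell to 0.0468 with library totals alone and to 0.0366 when genes were kept by a mean of at least 10 counts. Neither control had more than 10 counts, so that Gadd45a reached that mean through the clones as well. The lower values are therefore no independent support. In edgeR's quasi-likelihood test the adjusted p was 0.0562 with DESeq2's size factors, 0.0943 with no filter and 0.135 with the replicate block. DESeq2's own test gave an adjusted p of 0.457. In annotation of GRCr8, Gadd45a overlaps a non-coding locus that is not in the count tables.

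Bax, which permeabilizes the outer mitochondrial membrane in apoptosis, was counted 4 and 10 times in controls 1 and 2, and 16 and 10 times in the clones. In CPM these were 63.9, 96.9, 186 and 113, so that the clones lay above the controls but clone B only narrowly above control 2. The 10 counts of clone B fell just short of the filter's level of 114 CPM before normalization, and Bax was not tested. Pooled over the libraries of each group, the clones stood at 1.76 times the controls, with an exact 95% counting interval of 0.888 to 3.66. With the filter on the mean count, the log2 fold change was 0.82 (edgeR's quasi-likelihood adjusted p = 0.620).

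Bbc3, which encodes the BH3-only protein Puma and so acts upstream of Bax, was counted 1 and 0 times in controls 1 and 2, and 2 and 0 times in the clones. No library rose above the floor, and no difference was detectable at this depth. The authors' own mean normalized count for Bbc3, from a deeper table, is 154, which corresponds to 0.591 counts per library at the depth of the deposited counts. The same holds for Tp53inp1, which promotes p53-dependent cell death and autophagy. Tp53inp1 had 0 counts in all 4 libraries, which allows a level of up to 29.1 CPM in control 2 and up to 48.0 CPM in control 1. Its mean in the authors' table is 146, or 0.561 expected counts.

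The sestrins Sesn1 and Sesn2 are stress proteins that restrain mTORC1 and oxidative damage. Sesn1 was counted 3 times in clone B and 0 times in the other libraries, which does not exceed the floor. Its mean in the authors' table is 101, or 0.388 expected counts. Sesn2, which also responds to the integrated stress response, was counted 4 and 5 times in controls 1 and 2, and 14 and 7 times in clones A and B. The corresponding levels were 63.9, 48.5, 163 and 79.3 CPM, with clone B close to control 1. Pooled, Sesn2 stood at 2.22 times the controls with an exact 95% counting interval of 0.973 to 5.50, and it had too few counts to be tested. An annotated long non-coding RNA overlaps Sesn2 on GRCr8 and is not in the count tables.

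**Figure D3:**
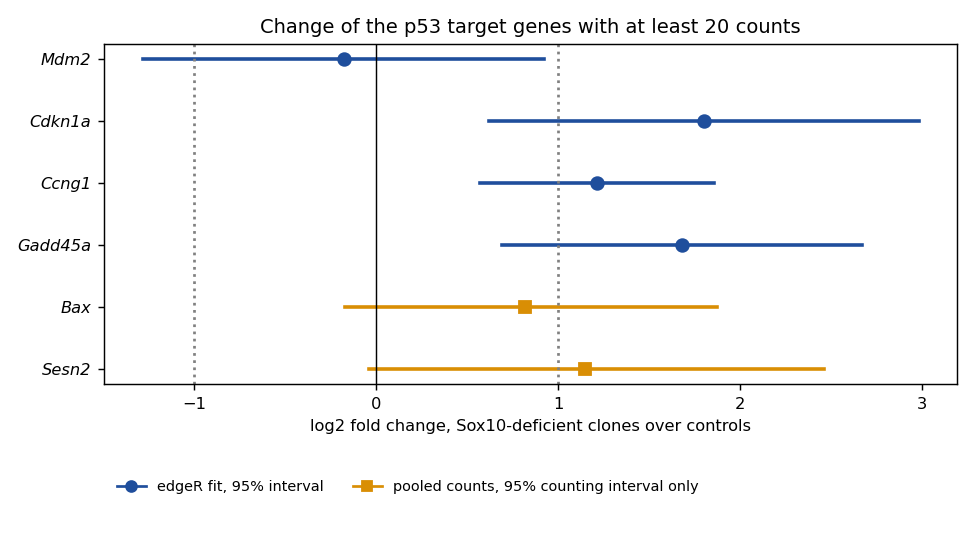
log2 fold change of the clones over the controls for the 6 p53 target genes with at least 20 counts. Circles and blue lines are edgeR fits with 95% intervals, squares and orange lines are pooled count ratios with 95% counting intervals, which leave out the spread between libraries, and dotted lines mark 2-fold. The intervals of Cdkn1a, Ccng1 and Gadd45a lie above 0, and those of Mdm2, Bax and Sesn2 include 0.

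Ratios between genes of one library do not depend on the scaling of the libraries. The ratio of Cdkn1a to Mdm2 counts was 0.333 and 0.389 in control cells but 1.00 for clone A and 2.63 for clone B. For Ccng1 it was 1.58 and 2.56 in the controls against 3.40 and 11.0 in the clones. The ratio of Gadd45a to Mdm2 reached 0.417 and 0.556 for the controls, then 1.25 for clone A and 3.25 for clone B. For these genes, both clones lay above both controls, and clone B, where Mdm2 was lowest, had the highest ratio. The genes were already seen to be higher in the clones, so that the ratios repeat those differences and are no further support. For Cdkn1a and Gadd45a the clones had nearly equal counts, so that the higher ratio of clone B came from its fewer Mdm2 counts. The count ratios carry the counting error of the 8 Mdm2 counts in clone B and were not tested.

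Between the clones, ratios lay near 1 for some genes and further from it for others, with wide counting intervals that overlapped. Clone A stood at 0.977 times clone B for Cdkn1a (exact 95% counting interval 0.502 to 1.89), at 0.986 times for Gadd45a (0.546 to 1.78) and at 0.793 times for Ccng1 (0.569 to 1.10). Mdm2 was the only one of the 9 genes whose interval for the clones left out 1. For Bax and Sesn2, clone A stood at 1.64 (0.700 to 4.05) and 2.05 times clone B (0.775 to 6.01). These intervals compare libraries, cover counting error only and are not adjusted for the number of genes compared.

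Of 22 genes listed for p53 and its regulators, 18 are in the count tables, 7 could be tested and none passed in either direction. Their median log2 fold change was 0.37, beside -0.01 over all tested genes. Fitted values lay above 0 for 4 of the 7 and under 0 for 3. The median is the value of a single gene, Rchy1, whose counts were 7.06 times those expected from the authors' mean, so that it is uncertain. The acetyltransferase gene Crebbp was counted 24 and 47 times in controls 1 and 2, and 23 and 21 times in the clones, with a log2 fold change of -0.75 (edgeR's quasi-likelihood adjusted p = 0.339). Trim28, a corepressor gene that aids Mdm2, had a log2 fold change of -0.49, and Rpl5, a ribosomal protein gene whose product can bind Mdm2, one of 0.40, neither of which passed. Rpl5 is uncertain here, because ribosomal protein genes have many near-identical copies in the genome. Tp63, Tp73 and Cdkn2a, the last of which encodes the Mdm2 inhibitor Arf, had 0 counts in every library.

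Beyond the 9 genes, 74 further p53 targets were listed by role, of which 68 are in the count tables and 15 could be tested. One passed as higher, Zfp385a, and 1 as lower, Thbs1, and the median log2 fold change of the 15 was 0.04. Zfp385a and Traf4 reached the filter's level in the clones alone and so had to differ, which limits what these counts say of the list. Zfp385a, a zinc finger gene whose product can bind p53 and favour arrest genes, was counted 2 and 1 times in the control cells, 35 times in clone A and 17 times in clone B. Pooled, the clones stood at 16.5 times the controls, with an exact 95% counting interval of 5.33 to 82.5, and edgeR's quasi-likelihood adjusted p was 0.00450. Its rise was known when the list was written, and it did not pass without clone A (adjusted p = 0.408 from edgeR) or without control 2 (0.497). Thbs1, which encodes the matrix protein thrombospondin 1, fell from 938 ± 120.2 to 217 ± 77.2 CPM (mean ± SD, n = 2), a log2 fold change of -2.10 (edgeR's quasi-likelihood adjusted p = 0.00107), but did not pass without control 2 (adjusted p = 0.386).

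By role, the genes of arrest or other cell cycle control had 3 tested members. Ccnd1, the gene of cyclin D1, was counted 96 and 131 times in controls 1 and 2, and 172 and 145 times in the clones, with a log2 fold change of 0.38 that did not pass. Zmat3 had 8, 7, 7 and 15 counts in the same order of libraries and did not pass either. Of the 18 genes of apoptosis or its control in the tables, 7 had no count in any library, among them Pmaip1 and Fas. The 2 tested genes were Phlda3, with a log2 fold change of 0.04, and Bcl2l1, with one of -0.06. For DNA repair, Pcna had a log2 fold change of -0.87 and Fancc one of -0.50, and neither passed. Fancc had on average 14.3 counts per library where 0.373 were expected from the authors' mean, which makes its counts uncertain. Among the metabolic and other targets, Kitlg had a log2 fold change of 0.79 and Plxnb2 one of 0.27, and neither passed.

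**Figure D4:**
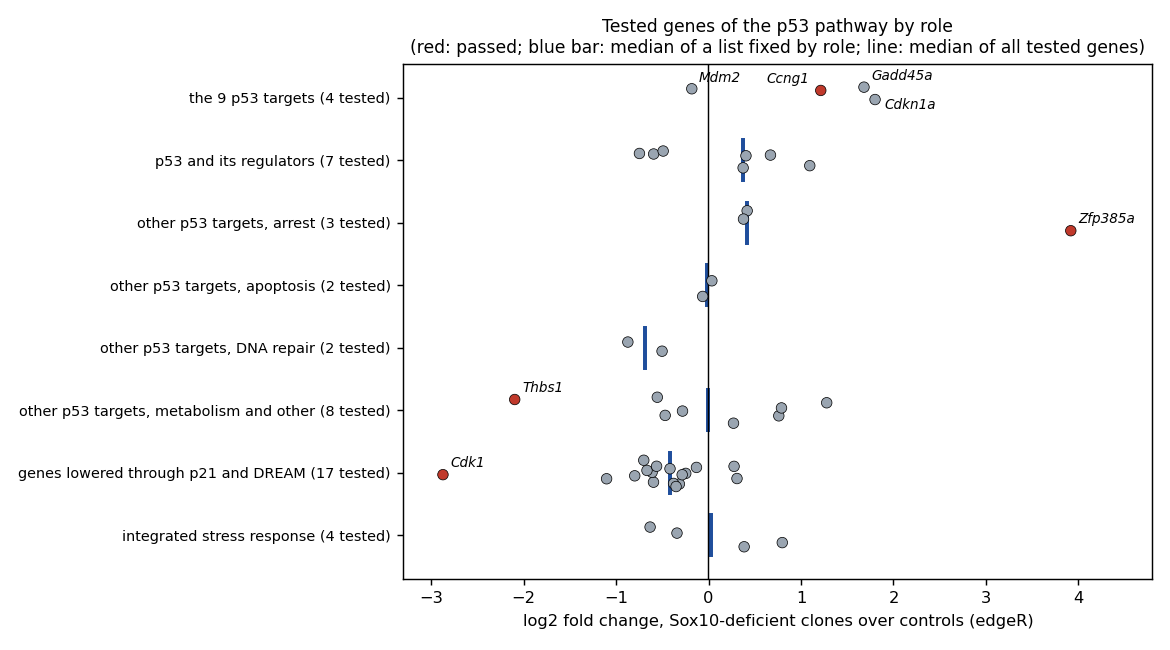
log2 fold change (edgeR, clones over controls) of every tested gene in the p53 pathway lists, 1 row per list. Red points passed the test, grey points did not, blue bars are the medians of the lists other than the 9 genes, and the vertical line is the median of all tested genes. Ccng1 and Zfp385a passed on the higher side, and Thbs1 and Cdk1 on the lower side.

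Active p53 lowers many cell cycle genes indirectly, through p21 and the DREAM repressor complex. Of 25 such genes, all in the count tables, 17 could be tested, 1 passed as lower and none as higher. Of the 17, Cdk1 and Mcm5 reached the filter's level in the controls alone and so had to be lower in the clones, which limits this call and the counts over the list. The gene that passed was Cdk1, the kinase of mitotic entry, which was counted 17 and 18 times in controls 1 and 2, and 1 and 4 times in clones A and B. Its log2 fold change was -2.87 (edgeR's quasi-likelihood adjusted p = 0.0373), and the adjusted p rose to 0.178 with DESeq2. It also did not pass without control 1 (adjusted p = 0.443 from edgeR), control 2 (0.497) or clone A (0.235). The fitted value lay under 0 for 15 of the 17 genes, against 1232 of all 2438 tested genes, with a median of -0.42. For 6 of the 17, among them Cdk1 and Mcm5, both clones lay below both controls, against 21.4% of all tested genes. Among the most abundant, Mki67 was counted 81 and 142 times in controls 1 and 2, and 98 and 90 times in the clones, a log2 fold change of -0.32, and Top2a and Cenpf had log2 fold changes of -0.66 and -0.35, none of which passed. The summed level of the 25 genes was 5995 and 4721 CPM for controls 1 and 2, against 3961 and 3715 CPM for clones A and B.

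Several of the 9 genes also respond to the integrated stress response, which runs through Atf4. Of 14 genes listed for it, 4 could be tested and none passed, with a median log2 fold change of 0.02. The other listed genes had too few counts to be tested. Some of them were higher in both clones than in both controls, and the rest overlapped. The median therefore does not show that this response was unchanged. Atf4 itself was counted 26 and 22 times in controls 1 and 2, and 42 and 27 times in the clones, a log2 fold change of 0.39. Ddit3, which encodes the stress factor Chop, had 16 and 11 counts against 22 and 30, with a log2 fold change of 0.80, but its counts were 7.11 times those expected from the authors' mean and are uncertain. Psat1, a serine synthesis gene, had a log2 fold change of -0.63.

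Markers were examined for the labelled cell type and for other cells. The 11 oligodendroglial markers summed to 2877 and 2656 CPM in controls 1 and 2, against 1835 and 1699 CPM in clones A and B. Nearly all of this difference came from Cnp and from Sox10, the inactivated gene itself. Sox10 stood at 448 and 620 CPM against 0 and 159, and Cnp at 991 and 659 against 407 and 226. Of the others, Cspg4 was higher and Nkx2-2 lower in both clones, so that the sum does not show a fall of the whole list. Pdgfra, a receptor of oligodendrocyte precursors, was counted 23 and 38 times in controls 1 and 2, and 31 and 44 times in the clones, and Cspg4 had 16 and 31 against 58 and 36. Neither passed. Of the 6 tested markers, 4 had a fitted value under 0, and of these Sox10 and Cnp passed as lower, the latter with a log2 fold change of -1.36 (edgeR's quasi-likelihood adjusted p = 0.0331). Nkx2-2 had a log2 fold change of -0.77 and did not pass. Olig1 had 12 and 1 counts in the controls and Olig2 had 7 and 0, and neither had a count in a clone. The counts of Nkx2-2 and Olig1 were 5.06 and 5.53 times those expected from the authors' mean, and the mean for Olig2 is 0, so that these are uncertain too. Of the myelin genes, Mag had no count in any library, Mbp had at most 2, and Mog had between 11 and 18 although the authors' mean for it is 0, so that its counts are uncertain. The 6 astrocyte markers summed to 432 and 213 CPM in controls 1 and 2 and to 23.2 and 11.3 CPM in clones A and B. S100b, which passed as lower (log2 fold change -4.04, edgeR's quasi-likelihood adjusted p = 0.00304), gave nearly all of this sum, with 4 of the 6 at 0 in every library. It too reached the filter's level in the controls alone. The 6 microglia markers summed to 63.9 and 136 CPM against 58.1 and 45.3, with 4 at 0, but nearly all of these counts were of Csf1r, at 130.2 times those expected from the authors' mean, so that the sum is no sure level of that cell type. Summed levels were, for the 5 neuron markers, 128 and 174 CPM against 105 and 45.3, mostly from Map2, with 3 at 0. The 6 fibroblast markers summed to 399.6 and 427 CPM against 325 and 193, mostly from Col1a1, with 3 at 0. The summed marker levels for these other cell types, like that of the oligodendroglial markers, were lower in both clones than in both controls. For the other cell types, each sum came mostly from a single gene in a cell line and so does not measure such cells. The part of these sums in the results was not tested.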

How the data were processed

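RNA-Seq counts of 2 control and 2 Sox10-deficient OLN93 libraries were analysed. Reads had been mapped to rat genome rn5 with STAR 2.5.1 and counted with HTSeq on Ensembl gene identifiers, per the paper's methods and the labels. The authors deposited raw counts per gene symbol for each library; the annotation by symbol and the strand option are not given in the sources used here. The deposited counts are shallow, at 0.384% of the mean count in the authors' table in the median of 5353 genes. That table gives a mean normalized count per Ensembl gene over all libraries, rounded by the authors and used here as a score. Its other columns hold the authors' own comparison and were not used.

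Counts were tested with edgeR 4.0.16 in R 4.3.3 (filterByExpr, TMM, quasi-likelihood test, condition as the sole term), after a test on simulated data. Intervals of fold changes used the standard error derived from the F statistic. Pooled count ratios have exact binomial 95% intervals (scipy 1.17.1), which cover counting error only. P-values measure the spread between these libraries. With 2 libraries per group, edgeR took most of the spread assumed for each gene from all tested genes together (median prior degrees of freedom 15.5). The members and gene lists were chosen with earlier results of these data known. From each list, genes that passed and the 3 tested genes with the highest mean CPM are named, with the 3 genes most like the most abundant member. Rchy1, Tp63, Tp73, Cdkn2a, Pmaip1, Fas, Traf4, Mcm5, Nkx2-2, Olig1, Olig2, Csf1r, Mag, Mbp and Mog were named after their values were seen. Some genes of the lists are not reported here. Alternatives were DESeq2 1.42.0, other normalizations and filters, a replicate block, and leaving out each library.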

Additional observations from a re-analysis of the deposited data

How the results depend on the processing

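The direction of Cdkn1a, Ccng1 and Gadd45a was kept in all 10 alternatives for each, whereas Mdm2 changed sign to 0.35 without clone B. For Cdkn1a, Ccng1 and Gadd45a both clones lay above both controls, so that leaving out a library could hardly reverse the direction. The kept direction is therefore no further support. Ccng1 lost its call with DESeq2 (log2 fold change 1.24, adjusted p = 0.233) and in every fit that left out a library (0.98 to 1.52), and Gadd45a passed with library totals alone (1.66) and with a mean of at least 10 counts (1.67). Leaving out a library moved Cdkn1a between 1.75 and 1.83, Gadd45a between 1.56 and 1.82 and Mdm2 between -0.99 and 0.35. Of the 9 genes, 1 passed as higher, against 0 with DESeq2 or any library left out, 2 with library totals alone, 2 with the mean filter and 3 with the unadjusted p. Of the further pathway genes, 1 passed as higher, against 0 to 1 without a library, and 2 as lower, against 1 with DESeq2 and 0 to 2 without a library. Over all genes, 27 higher and 61 lower became 8 and 28 with DESeq2, 113 and 170 with the unadjusted p, 0 to 39 and 0 to 70 without a library, and 44 higher genes with no filter. Without control 2, no gene passed at all. Each fit without a library assumes that the lone library of its group varies like the other group. The cause was not tested. The same replicate numbers occur in both groups, but nothing in the labels says that they pair the libraries, and deviations of same-numbered libraries had a correlation of 0.12 across genes. With the replicate block, Ccng1 had a log2 fold change of 1.24 and an adjusted p of 0.0539 from edgeR, 0 of the 9 genes passed, 1 further pathway gene passed as lower, and 11 and 28 of all genes passed as higher and lower. DESeq2's size factors and library totals moved the median gene by little, to 0.00011 and -0.03 from -0.01. At this depth, Bbc3, Sesn1 and Tp53inp1 could not be measured.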

Other observations

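The tested genes whose pattern over the 4 libraries lay nearest to that of Ccng1 were Nop58, Nacad and Hmga1, by the root mean square difference of centred log2 CPM (0.0719, 0.101 and 0.104). Nop58, a nucleolar protein gene, was counted 4 and 10 times in controls 1 and 2, and 15 and 23 times in clones A and B. Hmga1, a chromatin protein gene, had 4 and 12 counts against 15 and 22. Nacad had 14.7 times the counts expected from the authors' mean, so that its counts are uncertain. With 4 libraries such likeness is common, since 65 tested genes lay within 0.25 of Ccng1.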
